A study of Mus musculus with 4 samples.

Results

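Keratins, vimentin and nestin are the building blocks of cytoplasmic intermediate filaments, and the RNA of 9 such genes (Krt5, Krt6a, Krt7, Krt8, Krt14, Krt18, Krt19, Vim and Nes) was followed through a TGFβ-induced epithelial-to-mesenchymal transition (EMT). The genes were taken by symbol, and each matched 1 Ensembl gene, 9 of the 21971 genes counted. NMuMG, a cultured line of mammary gland epithelium from the mouse, stably overexpressed either a mutated human TRF1 fused to the Vp16 transcription activation domain (Vp16-TRF1ΔN) or the mutated human TRF1 alone (TRF1ΔN). TRF1 is a telomere-binding protein, and the series states that the Vp16 fusion was used to raise TERRA-like RNA, the noncoding RNA of telomeres, and to ask how this alters the EMT signature. Each line was sampled after 24 h of TGFβ at 5 ng/ml and at 0 h, so the 4 groups held 1 library each: Vp16-TRF1ΔN at 24 h, Vp16-TRF1ΔN at 0 h, TRF1ΔN at 24 h and TRF1ΔN at 0 h. Cells with no TRF1 construct and cells kept for 24 h without TGFβ were not analysed here, so time in culture and TGFβ cannot be told apart, and the labels do not say whether a line is a clone.

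A keratin filament is an obligate heteropolymer of a type I and a type II keratin. Simple epithelia, including the luminal cells of the mammary gland, are built on the type II keratin 8 and the type I keratins 18 and 19, whereas basal and myoepithelial cells use keratins 5 and 14, and keratin 6a is known from stressed and wounded epidermis. Vimentin, a type III filament protein, is typical of mesenchymal cells and widely used as an EMT marker. Nestin, a very long filament protein known from neural and muscle progenitors, does not form filaments alone and assembles with vimentin.

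The libraries held 35418985 to 45983910 counts in genes, and a count of 3, used as the detection floor, equals 0.0627 to 0.0877 CPM (counts scaled to a common library size, with edgeR's TMM factors). Counts on the construct row named VP16 were 27 and 15 in the Vp16-TRF1ΔN libraries at 24 h and 0 h, against 1 and 0 in the TRF1ΔN libraries. The construct row named TRF1DN had 159 and 123 counts in the Vp16-TRF1ΔN libraries (24 h and 0 h), against 7798 and 1863 in the TRF1ΔN libraries. Counts on that row were thus unequal between the lines, and within the TRF1ΔN line between 24 h and 0 h, and their part in the results was not tested. All 4 construct rows together took 0.0129% and 0.0136% of counts in the Vp16-TRF1ΔN libraries (24 h and 0 h) and 0.0582% and 0.0372% in the TRF1ΔN libraries. In every library most of these counts lay on construct rows not described here, so the VP16 and TRF1DN rows alone do not give the level of a construct. Mitochondrially encoded genes took 15.7% of counts at 24 h and 11.4% at 0 h in the Vp16-TRF1ΔN line, and 13.3% at 24 h and 10.2% at 0 h in the TRF1ΔN line. That share moved with TGFβ in both lines, and with these genes left out before scaling the same 6 of the 9 genes passed the test described below. In bulk RNA a lower level cannot be told apart from fewer cells expressing the gene.

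Of the 9 genes, 5 lie in the type II keratin cluster on chromosome 15 (GRCm38, the build also called mm10, with GENCODE M21 annotation). These are Krt7 (chr15:101411043-101430313, plus strand), Krt6a (chr15:101689910-101694307, minus), Krt5 (chr15:101707070-101712898, minus), Krt8 (chr15:101996698-102004482, minus) and Krt18 (chr15:102028180-102032027, plus), the only type I keratin gene of the cluster. Krt8 and Krt18 are 23.7 kb apart. Krt19 (chr11:100140810-100148665, minus) and Krt14 (chr11:100203162-100207548, minus) lie in the type I cluster. Vim is at chr2:13573927-13582826 and Nes at chr3:87971078-87980451, both on the plus strand.

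Some of these genes have near-identical relatives that could take or give reads. Of the 50-base words in the longest coding transcript, 62.0% were also found in transcripts of other genes for Krt6a, mainly Krt6b (43.6%), and 29.7% for Krt8, mainly the pseudogene Krt8-ps (26.9%). The share was 14.4% for Krt14, mostly with Krt16 (11.4%), and 12.2% for Krt5. It was below 1% for Krt7 (0.222%) and Krt18 (0.720%) and 0% for Krt19, Vim and Nes. Values for Krt6a, and to a lesser degree Krt8, Krt14 and Krt5, are therefore uncertain as to the exact gene. Krt5, Krt6a, Krt7 and Krt8 also overlap annotated genes on the opposite strand, and the strand setting of the counting is not given in the sources used here, so the strands cannot be told apart.

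RefSeq (GRCm38.p6) start sites give 300-base windows, 250 before and 50 after the start, for 7 of the genes, of which 4 are shown because Krt8 and Krt18 are neighbours that rose together, and Vim and Nes had the narrowest and a wide range of levels among the 9. They are chr15:102027966-102028265 (plus strand), chr15:102004293-102004592 (minus), chr2:13574061-13574360 (plus) and chr3:87970843-87971142 (plus), printed 5′ to 3′ on the gene's strand. Capitals mark matches on either strand to the TATA box TATAAA, the GC box GGGCGG, the SMAD-type word CAGACA and the E-box CACCTG that Snail and Zeb proteins recognise, and the AP-1 word TGANTCA was searched too.
Krt18: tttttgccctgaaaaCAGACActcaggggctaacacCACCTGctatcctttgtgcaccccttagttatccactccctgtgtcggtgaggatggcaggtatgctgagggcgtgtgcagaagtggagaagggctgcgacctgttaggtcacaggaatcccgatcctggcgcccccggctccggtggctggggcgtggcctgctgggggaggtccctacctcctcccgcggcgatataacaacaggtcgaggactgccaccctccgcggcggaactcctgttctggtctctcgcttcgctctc
Krt8: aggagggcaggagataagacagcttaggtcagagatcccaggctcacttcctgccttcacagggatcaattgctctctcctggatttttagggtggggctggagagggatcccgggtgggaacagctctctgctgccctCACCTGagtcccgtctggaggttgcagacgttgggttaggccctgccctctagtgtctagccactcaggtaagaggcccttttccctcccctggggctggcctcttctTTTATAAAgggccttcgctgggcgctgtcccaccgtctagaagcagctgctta
Vim: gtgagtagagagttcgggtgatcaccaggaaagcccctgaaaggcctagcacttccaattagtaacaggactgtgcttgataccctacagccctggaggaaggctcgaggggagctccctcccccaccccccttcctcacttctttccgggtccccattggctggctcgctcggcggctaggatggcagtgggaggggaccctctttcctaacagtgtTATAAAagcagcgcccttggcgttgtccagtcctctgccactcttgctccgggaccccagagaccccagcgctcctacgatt
Nes: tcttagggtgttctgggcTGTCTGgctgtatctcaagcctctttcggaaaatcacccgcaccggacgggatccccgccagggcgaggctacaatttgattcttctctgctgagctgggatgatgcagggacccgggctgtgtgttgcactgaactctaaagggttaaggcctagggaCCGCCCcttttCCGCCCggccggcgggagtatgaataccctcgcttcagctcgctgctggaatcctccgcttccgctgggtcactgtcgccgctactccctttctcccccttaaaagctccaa

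The Krt18 and Krt8 windows hold the E-box CACCTG, which begins 214 and 111 bases before the start of each gene and which 20.2% of all 32851 windows hold. The Krt7 and Krt5 windows, not printed here, hold it too. Krt18 also has CAGACA, 235 bases before its start (21.0% of windows). Krt8 has TATAAA on both strands in overlapping positions, 3 and 1 bases before the annotated start. The TATA box of Vim begins 32 bases before the start (13.6% of windows). Nes holds GGGCGG on the opposite strand at 73 and 62 bases (35.7% of windows) and CAGACA, also on the opposite strand, at 232 bases. None of the 7 windows held TGANTCA, found in 7.81% of all windows. The windows of Krt7, Krt14 and Vim lie wholly inside the gene spans given above, and the start used for Krt8 lies inside its gene. A word missing from these windows thus says nothing of the sequence before the annotated end of the gene. These matches describe the letters only.

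The 9 genes differed widely in level. Vim stood at 3703 CPM at 24 h and 3152 CPM at 0 h in the Vp16-TRF1ΔN line, and at 3432 CPM at 24 h and 3197 CPM at 0 h in the TRF1ΔN line. Krt18 stood at 3870.1 and 2502 CPM in the Vp16-TRF1ΔN line (24 h and 0 h) and at 3934 and 2760.2 CPM in the TRF1ΔN line. Krt8 stood at 1909 and 1571 CPM in the Vp16-TRF1ΔN line and at 2102 and 1675 CPM in the TRF1ΔN line. These 3 genes were abundant in all 4 libraries, and their highest library exceeded their lowest 1.17-fold (Vim), 1.57-fold (Krt18) and 1.34-fold (Krt8).

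Krt19, the shortest keratin, which lacks most of the tail domain, had lower levels after treatment than before it. Its level was 271 CPM at 24 h and 1646 CPM at 0 h in the Vp16-TRF1ΔN line, and 83.0 CPM at 24 h and 1559 CPM at 0 h in the TRF1ΔN line. Krt6a ranged 161-fold over the libraries, with 0.322 and 28.3 CPM in the Vp16-TRF1ΔN line (24 h and 0 h) and 0.715 and 51.9 CPM in the TRF1ΔN line. Both 24 h libraries lay below both 0 h libraries for each of these genes.

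Nes differed by treatment and by line. It stood at 9.68 CPM at 24 h and 2.13 CPM at 0 h in the Vp16-TRF1ΔN line, and at 46.7 CPM at 24 h and 9.30 CPM at 0 h in the TRF1ΔN line. The treated Vp16-TRF1ΔN library was thus at about the level of the untreated TRF1ΔN library.

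The keratins of basal cells were low. Krt14 had 67 and 81 counts in the Vp16-TRF1ΔN line (24 h and 0 h) and 128 and 133 in the TRF1ΔN line, or 1.96, 1.88, 3.05 and 2.78 CPM. Krt5, its usual partner, had 1 and 15 counts in the Vp16-TRF1ΔN line and 1 and 21 in the TRF1ΔN line. Krt7, a simple-epithelial type II keratin, had 9 and 39 counts in the Vp16-TRF1ΔN line and 82 and 116 in the TRF1ΔN line.

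**Figure D1:**
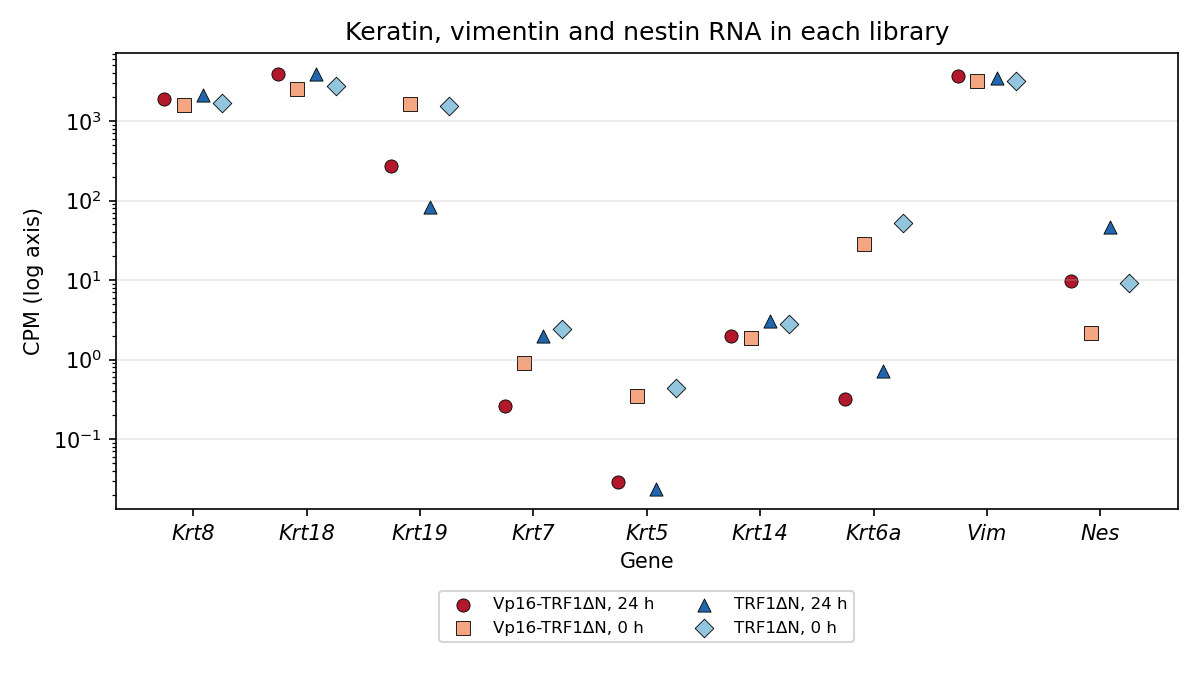
RNA level of the 9 genes in CPM (log axis) in each of the 4 libraries, 1 point a library with no replicates. Vim, Krt18 and Krt8 stayed between 1571 and 3934 CPM in every library, Krt19 and Krt6a were low in both 24 h libraries, and Nes ran from 2.13 to 46.7 CPM.

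Levels of different genes were compared per length. Per kb of annotated exons Krt18 was highest in every library, at 2693 and 1741 CPM per kb in the Vp16-TRF1ΔN line (24 h and 0 h) and 2737 and 1921 in the TRF1ΔN line. Krt8 followed at 24 h (975 and 1073 CPM per kb in the Vp16-TRF1ΔN and TRF1ΔN lines), and Vim came next (781 and 724). At 0 h Krt8 (803 and 856 CPM per kb in the Vp16-TRF1ΔN and TRF1ΔN lines) and Krt19 (887 and 841) were close, with Vim below both (665 and 674). With 1 library per group there is no spread against which to order these neighbours. The place of Vim depends on the length used: its exons add up to 4.743 kb but its longest coding transcript is 2.193 kb, and per kb of the transcript, a length chosen after the data were seen, Vim stood at 1688 and 1437 CPM per kb in the Vp16-TRF1ΔN line (24 h and 0 h) and 1565 and 1458 in the TRF1ΔN line, above Krt8. All other members were below 22 CPM per kb of exons.

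The first comparison asked how TGFβ changed the filament genes. Averaged over both lines, Krt8, Krt18 and Nes rose and Krt5, Krt6a and Krt19 fell, whereas Krt7, Krt14 and Vim did not pass the test. Krt6a fell by 6.26 ± 0.13 on the log2 scale (SE, adjusted p = 0.000793). Krt5 fell by 3.77 ± 0.61 (adjusted p = 0.00950) and Krt19 fell by 3.41 ± 0.44 (adjusted p = 0.00515). Nes rose by 2.27 ± 0.10 (adjusted p = 0.000825), Krt18 by 0.57 ± 0.08 (adjusted p = 0.00552) and Krt8 by 0.30 ± 0.07 (adjusted p = 0.0230). The values come from edgeR's quasi-likelihood test in an additive model of line and TGFβ over the 4 libraries, adjusted by Benjamini-Hochberg over 14305 genes. The model leaves 1 residual degree of freedom, which measures how far the lines depart from a common response. Nothing in the labels says that the libraries came from separate cultures, so p reflects no more than the spread among them.

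All 9 genes passed the filter on low counts, and 3 of them were called as higher and 3 as lower. Of all genes tested, 23.5% were called as higher and 25.1% as lower, and with 9 genes nothing is read from the count of calls. Krt5 had 1 count in each 24 h library and passed the filter only through the 0 h libraries, so its call gives no support beyond those counts. The median log2 change was 0.13 over the 8 members whose mean reached 1 CPM, against -0.01 over all genes at that level. Vim changed by 0.17 ± 0.08 (adjusted p = 0.137), Krt14 by 0.10 ± 0.19 (adjusted p = 0.689) and Krt7 by -0.74 ± 0.39 (adjusted p = 0.181). The call for Krt8 was lost with scaling by library totals only (adjusted p = 0.0589), and DESeq2's Wald test did not call Krt5 (adjusted p = 0.0708). With no term for the line, Krt8 (adjusted p = 0.0549) and Nes (adjusted p = 0.118) were not called.

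Within each line the ratio has no test, and the intervals in brackets are exact 95% intervals for counting error only. Krt6a was 87.9-fold lower at 24 h than at 0 h in the Vp16-TRF1ΔN line (48.9 to 177) and 72.5-fold lower in the TRF1ΔN line (50.7 to 108). Krt19 was 6.08-fold lower in the Vp16-TRF1ΔN line (5.95 to 6.22) and 18.8-fold lower in the TRF1ΔN line (18.2 to 19.5). The distance between the lines for Krt19 is larger than the SE of its average change implies.

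At 24 h Nes was up 4.54-fold in the Vp16-TRF1ΔN line (3.59 to 5.78) and 5.02-fold higher in the TRF1ΔN line (4.53 to 5.58), so the 2 intervals overlap. Krt18 was up 1.55-fold in the Vp16-TRF1ΔN line (1.53 to 1.56) and 1.43-fold higher in the TRF1ΔN line (1.41 to 1.44). Krt8 was up 1.21-fold in the Vp16-TRF1ΔN line (1.202 to 1.23) and 1.25-fold higher in the TRF1ΔN line (1.24 to 1.27). Both keratins of the pair thus moved the same way in both lines, Krt18 by more than Krt8.

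Vim was 1.17-fold higher at 24 h in the Vp16-TRF1ΔN line (1.17 to 1.18) and 1.07-fold higher in the TRF1ΔN line (1.07 to 1.08). With scaling by library totals only, the log2 ratio in the TRF1ΔN line was -0.0016. Krt7 was 3.43-fold lower in the Vp16-TRF1ΔN line (1.64 to 8.06), whereas in the TRF1ΔN line its ratio was 0.806 with an interval (0.600 to 1.08) that includes 1. Krt5, at 1 count in each 24 h library, was 11.9-fold lower in the Vp16-TRF1ΔN line (1.83 to 500.3) and 18.4-fold lower in the TRF1ΔN line (2.96 to 762), and Krt14 had ratios of 1.04 (0.744 to 1.46) and 1.10 (0.854 to 1.41) in these lines.

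A gene was counted as past 2-fold when its log2 ratio, with a prior count of 2, was at least 1 in size, its mean at least 1 CPM and its counting interval clear of 1. In the Vp16-TRF1ΔN line Nes was counted as higher (background 6.97% of 11778 genes) and Krt6a, Krt7 and Krt19 as lower (background 9.07%). In the TRF1ΔN line Nes was counted as higher (background 8.56%) and Krt6a and Krt19 as lower (background 10.7%). Krt5 was under the mean of 1 CPM and could not be counted.

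**Figure D2:**
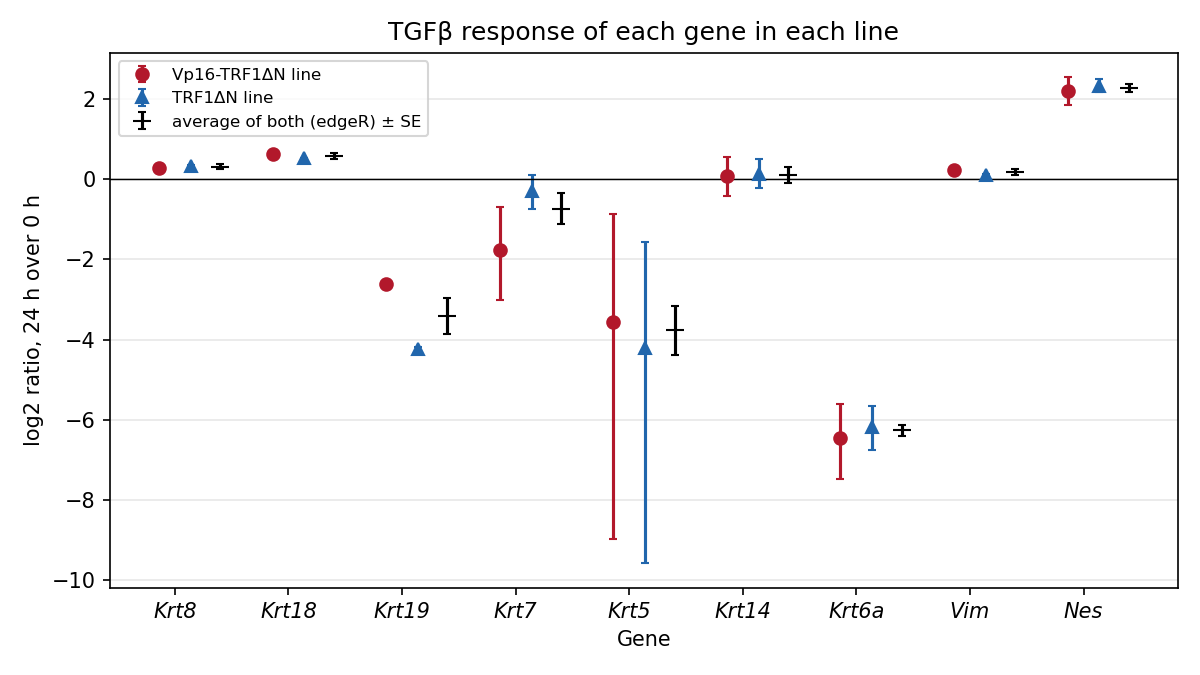
TGFβ response (log2 ratio of CPM, 24 h over 0 h) of the 9 genes in the Vp16-TRF1ΔN line (circles) and the TRF1ΔN line (triangles) with exact 95% counting intervals, and the average over both lines with its SE (dashes). Krt6a stood 87.9-fold and 72.5-fold lower at 24 h, Nes 4.54-fold and 5.02-fold higher, and Krt19 was lower by 6.08-fold in the Vp16-TRF1ΔN line and 18.8-fold in the TRF1ΔN line.

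The makeup of the keratin pool differed between 24 h and 0 h more than its size. All keratin genes together summed to 3872 CPM per kb at 24 h and 3513 CPM per kb at 0 h in the Vp16-TRF1ΔN line, and to 3931 and 3705 CPM per kb in the TRF1ΔN line. Krt19 made up 3.77% of that sum at 24 h and 25.3% at 0 h in the Vp16-TRF1ΔN line, and 1.14% and 22.7% in the TRF1ΔN line. Krt18 made up 69.6% and 49.6% in the Vp16-TRF1ΔN line and 69.6% and 51.8% in the TRF1ΔN line, and Krt8 between 22.8% and 27.3% in all 4 libraries. Krt8, Krt18 and Krt19 together held 97.6% to 98.5% of the keratin RNA per length in every library.

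Since keratins pair across types, the summed type I level was set against the summed type II level. The ratio was 2.96 at 24 h and 3.28 at 0 h in the Vp16-TRF1ΔN line, and 2.65 and 3.17 in the TRF1ΔN line, so type I RNA exceeded type II RNA in every library and by less at 24 h. Between the partners alone, Krt18 over Krt8 was 2.76 at 24 h and 2.17 at 0 h in the Vp16-TRF1ΔN line, and 2.55 and 2.25 in the TRF1ΔN line. These ratios rest on annotated exon lengths and have no replicate check.

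**Figure D3:**
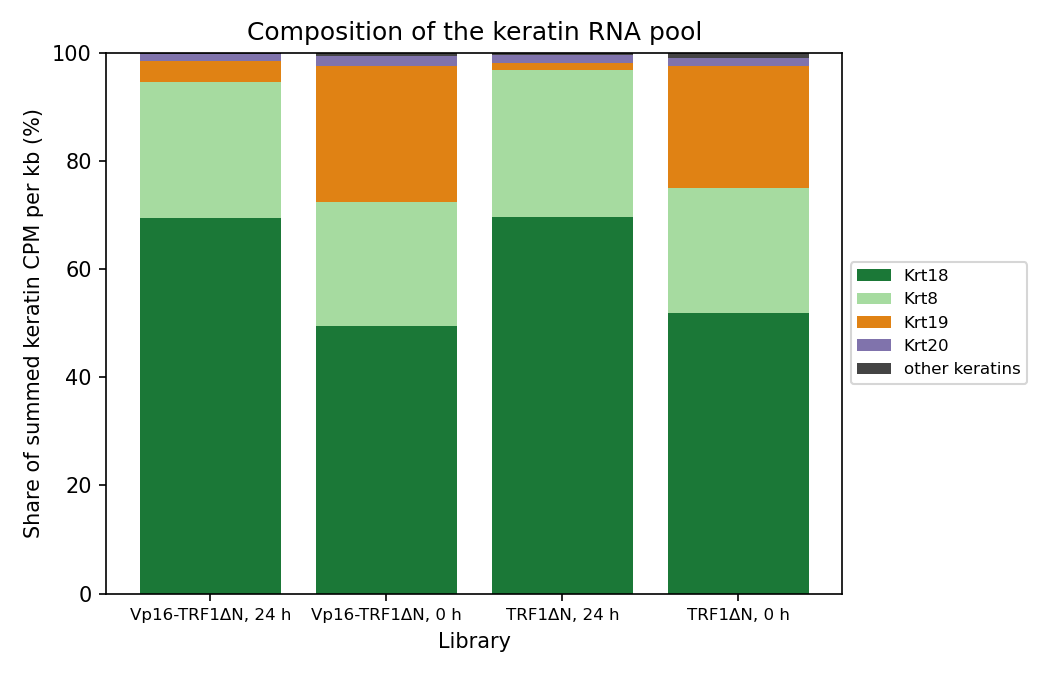
Share of each keratin gene in the summed keratin RNA (CPM per kb of exons, in percent) in the 4 libraries. The Krt19 share was 3.77% at 24 h and 25.3% at 0 h in the Vp16-TRF1ΔN line and 1.14% and 22.7% in the TRF1ΔN line, with Krt18 at 69.6% in both 24 h libraries.

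The other keratin genes went both ways with TGFβ. Of 47 other keratin genes listed, 26 were among the genes counted, 9 of these never exceeded 3 counts, and 9 passed the filter, of which 2 rose and 4 fell. Krt16, the usual type I partner of keratin 6a, rose by 2.45 ± 0.24 (adjusted p = 0.00279), with 4.27 and 1.02 CPM in the Vp16-TRF1ΔN line (24 h and 0 h) and 10.3 and 1.53 CPM in the TRF1ΔN line. Krt17, known from skin appendages and wounded skin, passed the test as higher (adjusted p = 0.00554), with 17 counts at 24 h and 1 at 0 h in the Vp16-TRF1ΔN line, 21.5-fold higher (3.36 to 897). In the TRF1ΔN line it had 56 and 0 counts, which with 3 counts per library as the floor is at least 21.3-fold higher. So of the keratin 6a and 16 pair, the type II member fell and the type I member rose.

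Krt76, a type II keratin of oral epithelium, fell by 4.89 ± 0.26 (adjusted p = 0.00100), Krt79 by 2.21 ± 0.25 (adjusted p = 0.00375) and Krt78 by 2.68 ± 0.54 (adjusted p = 0.0173). Krt23 had 1 count at 24 h and 27 at 0 h in the Vp16-TRF1ΔN line and 0 and 27 in the TRF1ΔN line (by the same floor, at least 7.897-fold lower), and passed the test as lower (adjusted p = 0.00725). Krt20 at a mean of 107 CPM (0.04 ± 0.13, adjusted p = 0.842), Krt80 (0.27 ± 0.11, adjusted p = 0.106) and Krt10 (-0.53 ± 0.23, adjusted p = 0.122) did not pass edgeR's test. The direction for Krt20 turned with scaling by library totals only (-0.06). Krt6b, whose transcripts share sequence with those of Krt6a, had 0 and 4 counts in the Vp16-TRF1ΔN line (24 h and 0 h) and 0 and 21 in the TRF1ΔN line. The pseudogene Krt8-ps had 24.0 and 20.0 CPM in the Vp16-TRF1ΔN line and 25.7 and 21.2 CPM in the TRF1ΔN line, and its change of 0.27 ± 0.08 was close to that of Krt8.

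Over both keratin types, 4 of 16 tested genes rose and 7 fell. Among type II keratins 1 of 8 rose and 5 fell, with a median log2 change of -1.47 over the 6 whose mean reached 1 CPM. Among type I keratins 3 of 8 rose and 2 fell, with a median of 0.07 over 6. Over all genes tested, 23.5% were called as higher and 25.1% as lower. These lists include the members, and their counts are descriptions. Krt5, Krt17, Krt23 and Krt78 had fewer than 10 counts in both libraries of their lower time and passed the filter only through the other time.

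Of 16 filament genes outside the keratins, Vim and Nes included, 10 were tested, 2 rose and 3 fell. The shares over all genes tested were 23.5% called as higher and 25.1% as lower. Synm, which encodes synemin, a large filament protein that assembles with vimentin or desmin, rose by 1.96 ± 0.36 (adjusted p = 0.0131), with 5.29 and 2.22 CPM in the Vp16-TRF1ΔN line (24 h and 0 h) and 12.3 and 2.03 CPM in the TRF1ΔN line. Of the nuclear lamins, Lmnb1 fell by 1.21 ± 0.16 (adjusted p = 0.00536) and Lmnb2 by 0.42 ± 0.09 (adjusted p = 0.0227, but 0.111 with no term for the line), whereas Lmna did not pass (-0.01 ± 0.07, adjusted p = 0.923). Bfsp1, a filament gene of the lens, did not pass (-0.22 ± 0.26, adjusted p = 0.514). Prph, the peripherin gene, fell by 1.60 ± 0.34 (adjusted p = 0.0197, but 0.200 in DESeq2's Wald test).

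Of 18 listed genes whose products anchor, cap or regulate filaments, 15 were tested, 6 rose and 4 fell. Over all genes tested, 23.5% were called as higher and 25.1% as lower, and nothing is read from these counts of calls. The desmosomal plakophilin gene Pkp1 rose by 3.27 ± 0.21 (adjusted p = 0.00131) and Dst, which encodes the linker dystonin, by 1.18 ± 0.09 (adjusted p = 0.00164). Evpl, which encodes the envoplakin of the cornified envelope, had a change of 1.14 ± 0.37 and did not pass (adjusted p = 0.0618, but 0.0183 without a filter on low counts). Pof1b, which encodes an actin-binding protein of epithelia, fell by 5.07 ± 0.43 (adjusted p = 0.00216). It had 5 and 151 counts in the Vp16-TRF1ΔN line (24 h and 0 h) and 1 and 99 in the TRF1ΔN line. Pof1b passed the filter only through the 0 h libraries, so its call gives no support beyond those counts. Ppl, the periplakin gene, fell by 1.39 ± 0.26 (adjusted p = 0.0140). Pkp3 did not pass (-0.73 ± 0.23, adjusted p = 0.0581, but 0.0408 with library totals only and 0.0419 without a filter).

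**Figure D4:**
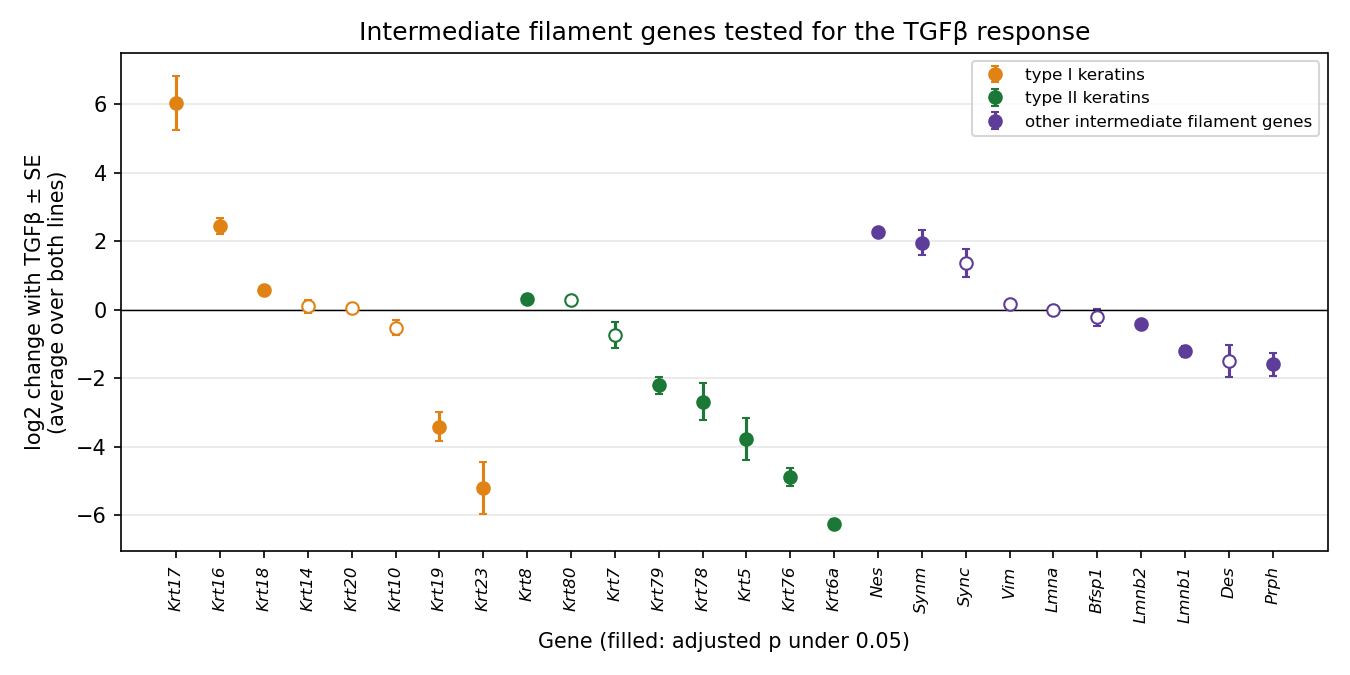
Average log2 change with TGFβ ± SE of the 26 intermediate filament genes that passed the filter on low counts, by class, with filled points for an adjusted p under 0.05 (edgeR). Values range from Krt6a at -6.26 upward, and fitted values of Krt17 and Krt23, which had a library at 0 counts, depend on the prior count.

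Markers of mammary and other cell types were read beside these changes. Their counts of calls are descriptions, since 23.5% of all genes tested were called as higher and 25.1% as lower. The basal regulator Trp63 had at most 6 counts in a library. Of 12 basal and myoepithelial markers without keratins, 7 were tested, 4 rose and 2 fell. Those that fell in edgeR's test were Itgb4 (-0.45 ± 0.10, adjusted p = 0.0219, but 0.0662 with no term for the line) and Mme (-2.15 ± 0.32, adjusted p = 0.00730). Itgb4 stood at 82.0 and 126 CPM in the Vp16-TRF1ΔN line (24 h and 0 h) and 108 and 132 CPM in the TRF1ΔN line. Among those that rose, Acta2, Tagln and Col17a1 had at most 5 counts in a 0 h library. They passed the filter only through the 24 h libraries, so their calls give no support beyond those counts. Acta2 had 33 and 1 counts in the Vp16-TRF1ΔN line (24 h and 0 h) and 75 and 1 in the TRF1ΔN line. The summed level of the list was 871 and 616 CPM in the Vp16-TRF1ΔN line (24 h and 0 h) and 819.6 and 619 CPM in the TRF1ΔN line. Most of that sum was the laminin gene Lamb3, at 783 and 486 CPM in the Vp16-TRF1ΔN line and 704 and 480.3 CPM in the TRF1ΔN line. Of 15 luminal markers, 5 were tested, 1 rose and 2 fell, with sums of 129 and 354 CPM in the Vp16-TRF1ΔN line and 98.4 and 342 CPM in the TRF1ΔN line, mostly Cd14 and Areg. In edgeR's test Cd14 fell by 1.88 ± 0.11 (adjusted p = 0.00109) and Areg by 1.27 ± 0.12 (adjusted p = 0.00282). Gata3 rose by 1.66 ± 0.23 (adjusted p = 0.00649), and Foxa1 did not pass (-0.09 ± 0.13, adjusted p = 0.618). The luminal marker Epcam had at most 18 counts, so the cells carried the luminal keratins but little of this marker.

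Of 14 suprabasal and squamous markers, 5 were tested, 1 rose and 1 fell. For this and the next lists too, the shares over all genes tested were 23.5% higher and 25.1% lower. The squamous sum was 879 CPM at 24 h and 1065 CPM at 0 h in the Vp16-TRF1ΔN line, and 269 CPM and 1209 CPM in the TRF1ΔN line. Most of that sum was Sprr1a, a cornified envelope precursor gene. Of 8 fibroblast markers 3 were tested and all rose (Gsn, Col1a1 and Pdgfra), while Dcn had at most 2 counts. The sums were 543 and 273 CPM in the Vp16-TRF1ΔN line and 513 and 247 CPM in the TRF1ΔN line, mostly the actin-severing gelsolin gene Gsn. Col1a1 had 9.59 and 1.07 CPM in the Vp16-TRF1ΔN line (24 h and 0 h) and 18.5 and 0.732 CPM in the TRF1ΔN line. Of 7 immune markers 2 were tested and 1 rose, and their sums lay between 3.66 and 5.46 CPM, with Ptprc at most 7 counts. Of 6 endothelial markers 3 were tested, 1 rose and 2 fell, and their sums were 48.2 and 121 CPM in the Vp16-TRF1ΔN line and 38.9 and 113 CPM in the TRF1ΔN line, mostly Flt1, with Pecam1 at most 3 counts. The endothelial marker that rose, Cdh5, had 24 and 5 counts in the Vp16-TRF1ΔN line (24 h and 0 h) and 50 and 4 in the TRF1ΔN line. Csf1r and Cdh5 passed the filter only through the 24 h libraries, so their calls give no support beyond those counts. The part of other cell types in the keratin, vimentin and nestin values was not tested.

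The second comparison asked how the Vp16-TRF1ΔN line differed from the TRF1ΔN line. None of the 9 genes passed edgeR's test of the difference averaged over both times, and neither did any of the 14305 genes tested (0%). At an unadjusted p under 0.05 there were 4 of the 9, all lower in the Vp16-TRF1ΔN line (Krt6a, Krt7, Krt14 and Nes), against 12.5% of all genes. The largest difference was that of Nes, at -2.21 ± 0.10 on the log2 scale (adjusted p = 0.0755), followed by Krt7 (-1.94 ± 0.40, adjusted p = 0.394), Krt6a (-0.91 ± 0.11, adjusted p = 0.342) and Krt14 (-0.60 ± 0.19, adjusted p = 0.399). DESeq2's Wald test called Nes (-2.21, adjusted p = 4.07e-20) and 0.335% of all genes. Without a filter on low counts edgeR called Nes, Krt6a and Krt7, and 0.496% of all genes.

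Nes was lower in the Vp16-TRF1ΔN line at both times. It was 4.83-fold lower at 24 h (4.29 to 5.44) and 4.37-fold lower at 0 h (3.48 to 5.53), so the difference between the lines was present before TGFβ. Krt7 was 7.43-fold lower at 24 h (3.73 to 16.8) and 2.68-fold lower at 0 h (1.85 to 3.96). Krt6a was 2.22-fold lower at 24 h (1.08 to 4.92) and 1.83-fold lower at 0 h (1.71 to 1.97).

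Krt19 differed at 24 h and hardly at 0 h. At 24 h its level in the Vp16-TRF1ΔN line exceeded that in the TRF1ΔN line 3.26-fold (3.14 to 3.39), while the 0 h ratio was 1.06 (1.04 to 1.07), and its average difference did not pass the test (0.88 ± 0.41, adjusted p = 0.419). Krt8, Krt18 and Vim had ratios near 1 in this comparison, namely 0.908, 0.984 and 1.08 at 24 h and 0.938, 0.907 and 0.986 at 0 h. Krt14 had ratios of 0.642 (0.471 to 0.870) at 24 h and 0.675 (0.505 to 0.896) at 0 h. For Krt5 no fold is given at 24 h, where both libraries had 1 count, and its 0 h ratio was 0.791 (0.380 to 1.61).

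At 24 h, Krt19 was counted as past 2-fold higher (background 2.11% of genes) and Krt6a, Krt7 and Nes as past 2-fold lower (background 1.19%) in the Vp16-TRF1ΔN line. At 0 h none of the 8 genes whose mean reached 1 CPM was counted as higher (background 0.187%), and Krt7 and Nes were counted as lower (background 0.416%). The comparisons at 24 h and 0 h share no library with each other, but each shares its libraries with the TGFβ responses above.

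**Figure D5:**
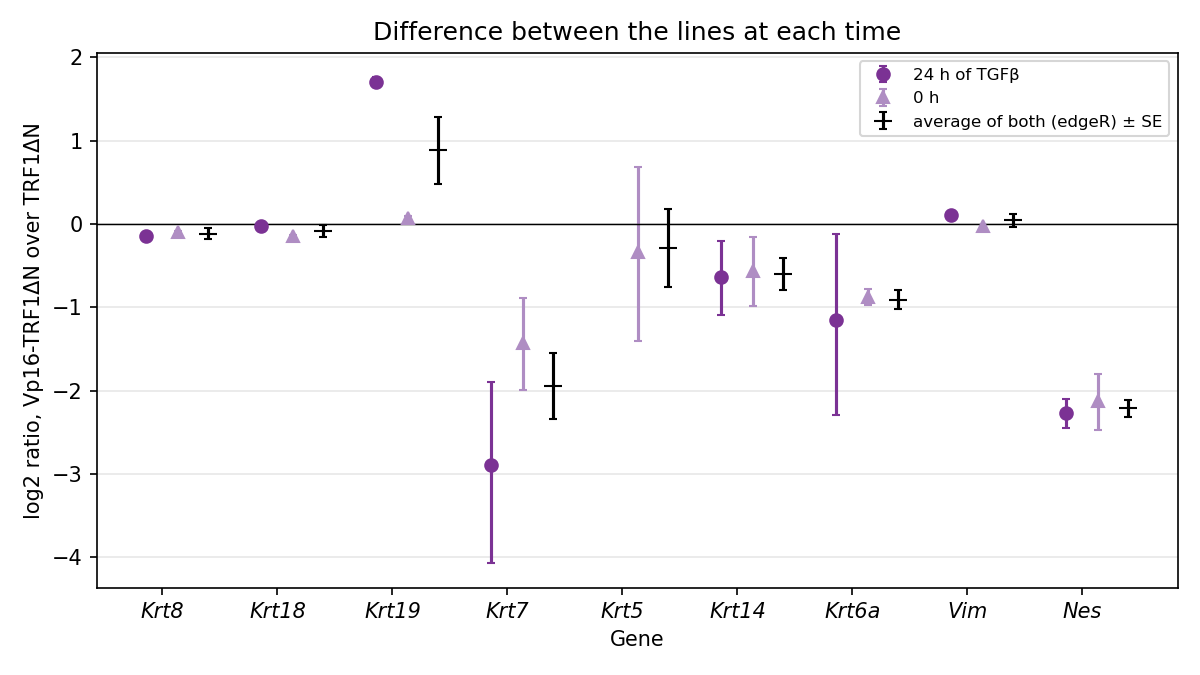
Difference between the lines (log2 ratio of CPM, Vp16-TRF1ΔN over TRF1ΔN) of the 9 genes at 24 h of TGFβ (circles) and 0 h (triangles) with exact 95% counting intervals, and the average over both times with its SE (dashes). Nes was 4.83-fold lower at 24 h and 4.37-fold lower at 0 h, and Krt19 was 3.26-fold higher at 24 h with a ratio of 1.06 at 0 h. Krt5 has no point at 24 h.

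The third comparison set the TGFβ response of the Vp16-TRF1ΔN line against that of the TRF1ΔN line, as a difference of log2 ratios with an interval for counting error and no test. It was largest for Krt19, at 1.63 (1.57 to 1.69), since this gene was lower by less in the Vp16-TRF1ΔN line. Krt7 had the opposite sign at -1.31 (-2.36 to -0.25), on 9 to 116 counts per library. Krt18 (0.12, 0.10 to 0.13), Vim (0.13, 0.11 to 0.15) and Krt8 (-0.05, -0.07 to -0.03) had intervals clear of 0 at their depth, with differences far smaller than that of Krt19. Intervals for Nes (-0.16, -0.53 to 0.20), Krt6a (-0.17, -1.12 to 0.77), Krt14 (-0.07, -0.65 to 0.51) and Krt5 (0.41, -2.14 to 2.96) included 0.

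For each member the 2 genes with the closest pattern were found among 9674 other protein-coding genes whose mean reached 5 CPM, by the root mean square distance of centred log2 levels over the 4 libraries. Nearest to Krt19 were Dhrs9 (0.08) and Foxred2 (0.08), and Foxred2 had 1.52 and 10.8 CPM in the Vp16-TRF1ΔN line (24 h and 0 h) and 0.477 and 8.93 CPM in the TRF1ΔN line. Nearest to Krt18 were Ajuba (0.0094), at 162 and 106 CPM in the Vp16-TRF1ΔN line and 165 and 116 CPM in the TRF1ΔN line, and Loxl4 (0.012). Nearest to Krt8 were Pogk (0.0073) and Blzf1 (0.0093), to Vim AI597479 (0.0051) and Tmem120a (0.0070), to Krt14 Igf2bp1 (0.05) and Cdh24 (0.06), and to Krt5 Cdc6 (0.05) and Sema6b (0.06). The log2 levels include a prior count of 2, which shrinks the pattern of Krt5, at 1 count in each 24 h library. With it the log2 ratios of Krt5 were -2.36 (Vp16-TRF1ΔN line) and -2.76 (TRF1ΔN line), so its 2 small distances depend on the prior count. Krt6a, Nes and Krt7 had more distant neighbours, the nearest being Clrn3 at 0.57, Glipr2 at 0.59 and Eda2r at 0.47. With 4 libraries, many genes have alike patterns.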

How the data were processed

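Per the submitters' processing notes, reads of rRNA-depleted total RNA were examined with FastQC, aligned to mm10 with STAR and counted per gene with HTSeq, and DESeq2 was used. No version, annotation release or strand setting is given in the sources used here. The deposited count table was the basis of all tests. The deposited normalized log2 values differed from log2 of the count divided by a DESeq2 size factor, plus 1, by at most 0.00022, and served as an alternative. The 4 construct rows (0.0129% to 0.0582% of counts) entered neither library sizes nor tests.

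Counts of 21971 genes were fitted in edgeR 4.0.16 (R 4.3.3): TMM scaling, filterByExpr, and an additive quasi-likelihood model of line and TGFβ. The fit was also run on counts simulated at the common dispersion of these data, with no difference between the lines. That run cannot check what 1 library per group leaves unknown. Calls have a Benjamini-Hochberg adjusted p under 0.05 over all 14305 genes tested, two-sided, and the SE is the log2 change over sqrt(F). Ratios between 2 libraries have no test. Alternatives were DESeq2 size factors, library totals, no filter, robust moderation, mitochondrial genes left out, 1-term designs, DESeq2 1.42.0's Wald test, a prior count of 0.5 and a fold threshold of 1.5. Coordinates and lengths are from GENCODE M21, promoters from RefSeq.

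Named are all 9 members, every other filament gene with a mean of at least 1 CPM, and up to 3 largest and smallest changes of the linker list. Krt17, Krt23, Krt78, Krt6b, Krt8-ps and Prph, and the marker genes named, were added after their values were seen. The members, lists and tests were chosen with earlier results of these data known. For the 9 members, no gene set was tested.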

Additional observations from a re-analysis of the deposited data

How the results depend on the processing

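The 6 calls for TGFβ held with DESeq2 size factors, no filter, robust moderation and mitochondrial genes left out. Library totals only, DESeq2's Wald test and a time term only gave 5, 5 and 4 calls. For the line difference, 0 members were called as reported, 3 without a filter and 1 by DESeq2's Wald test, and 0 under the other settings; the cause was not tested. Taken over both directions, the counts of members past 2-fold stayed within 1.5 times under every scaling, the prior count of 0.5, the deposited log2 values and the fold threshold of 1.5. By direction they could move more: at the threshold of 1.5, Krt18 joined Nes as higher at 24 h in the Vp16-TRF1ΔN line (log2 ratio 0.63). Without length, type I over type II keratin CPM was 2.21 (24 h) and 2.63 (0 h) in the Vp16-TRF1ΔN line and 1.96 (24 h) and 2.51 (0 h) in the TRF1ΔN line, since the lengths differ by gene. With library totals only, which shift the median gene by -0.098 for TGFβ, signs turned for Vim in the TRF1ΔN line (-0.0016), Krt20 (-0.062) and Dsp (-0.040). No paired analysis was possible by replicate number because each group has 1 library, but the reported model already sets 24 h against 0 h within each line, and the fit with a time term only is its unpaired form. No library could be left out of the additive model, which would then have no residual degree of freedom; each line's own ratio is the value without the other line. Ratios of Krt5, Krt7, Krt6a at 24 h and Krt14 are limited by depth.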

Other observations

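Sprr1a, a cornified envelope precursor gene of the squamous list, stood at 832 CPM at 24 h and 1010.2 CPM at 0 h in the Vp16-TRF1ΔN line, and at 226 CPM at 24 h and 1132.5 CPM at 0 h in the TRF1ΔN line. It was 5.02-fold lower at 24 h in the TRF1ΔN line (95% counting interval 4.91 to 5.13) and 1.21-fold lower in the Vp16-TRF1ΔN line (1.195 to 1.23). Its average TGFβ change did not pass edgeR's quasi-likelihood test (-1.30 ± 0.52, adjusted p = 0.104), but passed it without a filter on low counts (adjusted p = 0.0159). Periplakin (Ppl), which helps anchor keratin filaments to the cornified envelope, was 1.83-fold lower at 24 h in the Vp16-TRF1ΔN line (1.77 to 1.89) and 3.75-fold lower in the TRF1ΔN line (3.598 to 3.90). As for Krt19, the ratio was nearer to 1 in the Vp16-TRF1ΔN line for both genes. This was not particular to them: it held for other named genes, such as Krt16 and Synm, but not for Krt7 or Krt18. Over all genes, 6.97% were past 2-fold higher and 9.07% lower in the Vp16-TRF1ΔN line, against 8.56% and 10.7% in the TRF1ΔN line. Sprr1a and Ppl were picked after their values were seen, and the difference was not tested. In the same list, Ivl, the involucrin gene, rose with TGFβ by 1.41 ± 0.13 (adjusted p = 0.00263, edgeR) and Sbsn fell by 3.79 ± 0.27 (adjusted p = 0.00160).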
